A study of Mus musculus with 31 samples.

Results

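A set of 10 regulator genes of the blood lineages was examined in the open chromatin of NIH-3T3, a line of mouse embryonic fibroblasts. They were Gata1, Gata2, Gata3, Spi1, Tal1, Lmo2, Ikzf1, Pax5, Ebf1 and Myb, 10 of the 21938 protein-coding genes annotated on chromosomes 1 to 19, X and Y. All but Lmo2 encode a transcription factor (TF). The genes were listed by name for their known roles in blood. No value of the data entered the rule, but earlier results of these data were known when the list was made. For each gene, peaks of the assay for transposase-accessible chromatin with sequencing (ATAC-seq) were collected in 3 places. These were within 1 kb of any annotated transcription start site (TSS) of the gene, called promoter peaks here, elsewhere in the gene body, and elsewhere within 50 kb of the gene.

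The series holds 31 ATAC-seq samples of NIH-3T3 cells, and the single library used here comes from the parental line, which carries no TF transgene, was grown in DMEM with serum and has no doxycycline among its labels. The other 30 samples, cells overexpressing a TF or the transactivator rtTA3G alone, were not analysed here. Tn5, the transposase of the assay, cuts DNA that nucleosomes leave free, so that fragments pile up over accessible chromatin. The deposited list holds 63456 peaks with a median fold enrichment of 6.04 (range 1.41 to 62.1), which is the fragment pileup at the peak's summit over the local expectation with 1 added to each. The summits held a median of 29 fragments and at least 10. The most frequent local expectation was 2.81 fragments, and among the member peaks it reached 13.7. With 1 library there was no replicate error and no test between samples could be made, so that every value describes this library. Intervals given for fragment counts are exact 95% Poisson intervals and cover counting error only.

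The 10 genes act at successive branches of blood formation. Tal1 and Lmo2 form a complex with GATA factors and the bridging protein Ldb1 in stem cells and red cell precursors, where Gata2 precedes Gata1. Spi1 encodes PU.1, the ETS factor of myeloid and B cells, Ikzf1, Ebf1 and Pax5 act in lymphoid and B cell development, Gata3 in T cells, and Myb in progenitors of most blood lineages. Some of them are also used outside blood, among them Gata2 in endothelium, Gata3 in breast epithelium and Ebf1 in adipocytes and bone marrow stroma. Fibroblasts are not a blood cell type, so these genes show how loci of another lineage look in the open chromatin of this line.

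The identity of the cells was read from marker genes first. A promoter peak was present at 13 of 15 fibroblast marker genes (86.7%), with fold enrichments from 3.41 at Thy1 to 10.5 at Fn1, and absent from Fap and Lum. Among blood cell marker genes 4 of 14 had one (28.6%), namely Cd34, Csf1r, Epor and Cd4, with fold enrichments of 10.1, 5.68, 4.65 and 2.77. Ptprc, which encodes the leukocyte antigen CD45, the B cell gene Cd79a, the T cell gene Cd3e and the globin genes Hba-a1 and Hbb-bs had none. Over all protein-coding genes the share was 53.7%, and over those with CpG-poor starts, defined below, 23.5%. Only 1 of the 14 blood cell markers was CpG-rich, against 5 of the 15 fibroblast markers. The share of the blood cell markers was thus not below that of CpG-poor genes in general.

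Of the 10 blood lineage regulator genes, 4 had a promoter peak, Gata2, Gata3, Spi1 and Ebf1. Over all protein-coding genes 53.7% had one, so the members' share of 40% was below that of genes at large, a difference that was not tested. A further peak in the gene body was found at 3 members, Ebf1, Spi1 and Pax5, against 34.3% of all protein-coding genes. A further peak within 50 kb was found at 10 of 10, against 81.1%. In all, 66 peaks belonged to the members, 7 promoter peaks, 23 in gene bodies and 36 in flanks. Their fold enrichments had a median of 6.34 (lowest 2.51, highest 17.3), close to that of the whole list.

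**Figure D1:**
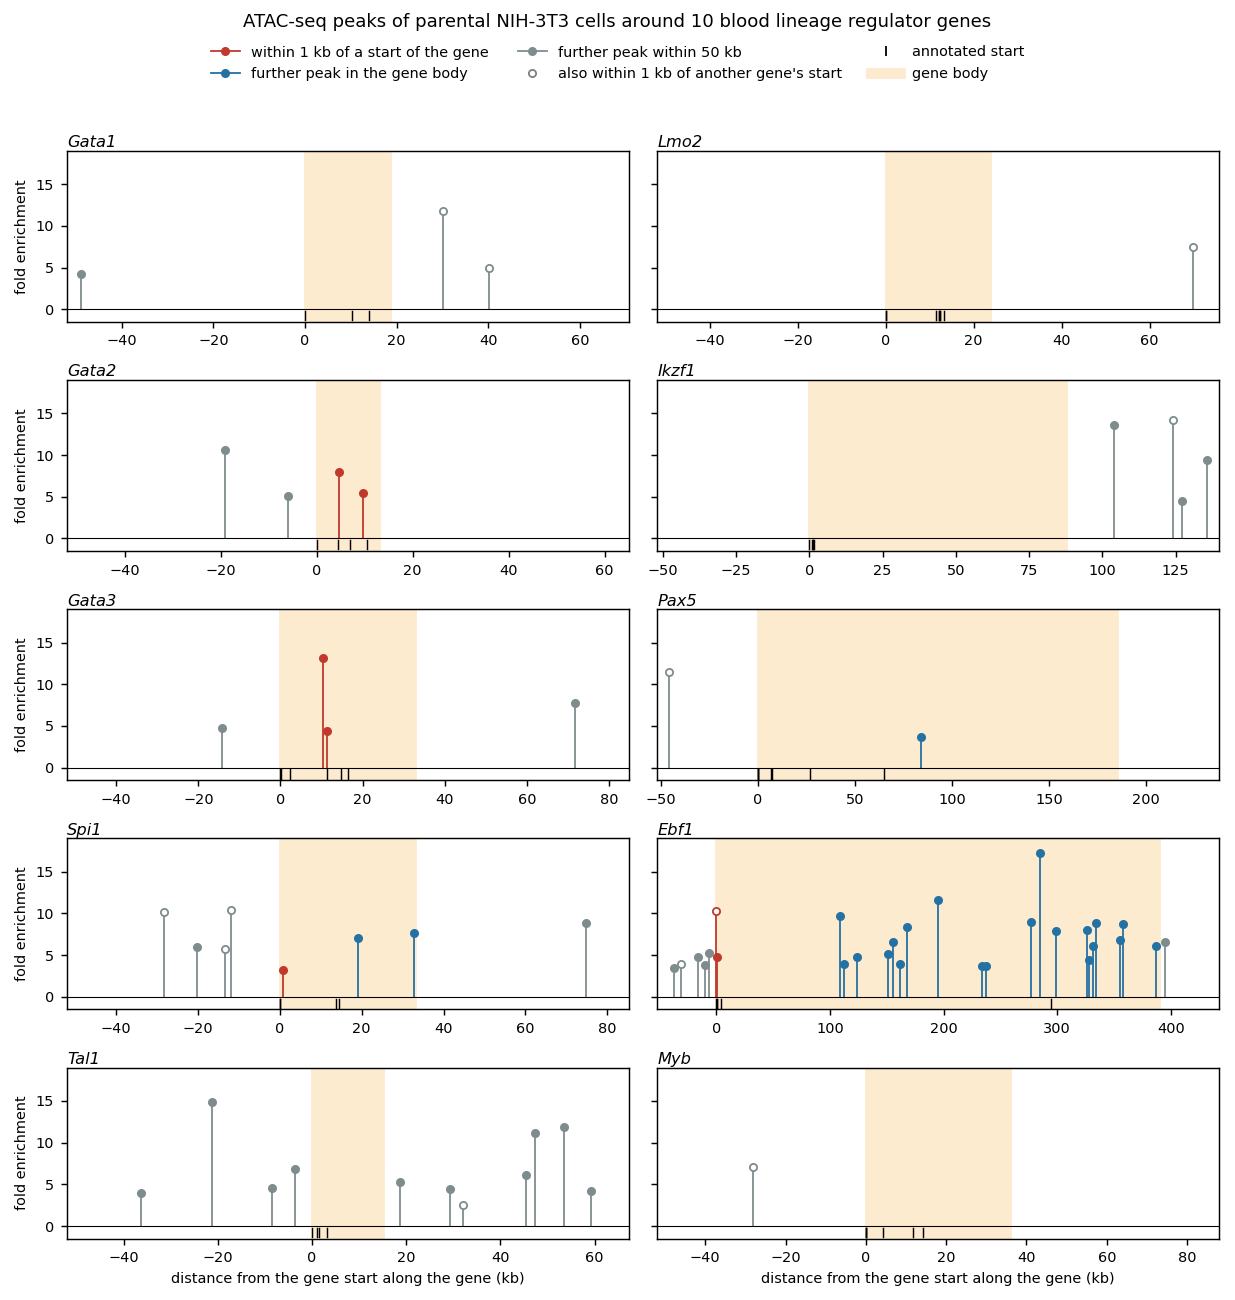
Accessible peaks of the parental NIH-3T3 library around each of the 10 genes, with the distance of the summit from the gene start along the direction of transcription (kb) on the x axis and the fold enrichment on the y axis. Red stems are promoter peaks, blue stems further peaks in the gene body (shaded), grey stems further peaks within 50 kb, open circles peaks that also lie within 1 kb of another gene's start, and ticks are annotated starts. Ebf1 carries peaks along most of its body, whereas the bodies of Gata1, Tal1, Lmo2, Ikzf1 and Myb are empty.

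Gata2 encodes the GATA factor of blood stem cells and has 2 coding starts in the annotation, 4443 bp apart. Its strongest promoter peak, chr6:88198232-88198804 in mm10, covered the proximal start and had a fold enrichment of 8.03 (−log10 q 34.1, 61 fragments at the summit, interval 46.7 to 78.4). The distal start, which has the higher CpG content of the pair, lay 4341 bp from the nearest peak. A narrower peak at chr6:88203428-88203588, inside an intron, had a fold enrichment of 5.5 (−log10 q 16.1, 39 fragments). It counted as a promoter peak only through the start of a retained-intron transcript 857 bp away. The highest peak in the flanks lay upstream, at −19.1 kb from the gene start (chr6:88174540-88175148), with a fold enrichment of 10.6 (−log10 q 35.1), and another at −5.94 kb had a fold enrichment of 5.08. The upstream peak thus exceeded both peaks inside the gene in fold enrichment, with 50 fragments against 61 at the proximal start.

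The intronic peak of Gata2 lies near the element known as the +9.5 kb enhancer, where an E-box, the site of TAL1 and its partners, stands 8 bp ahead of a GATA site. Counted from the gene start, 9.5 kb fell 37 bp outside the peak, whose summit was at +9.59 kb. On either strand, an E-box (CANNTG) followed after 8 bp by a GATA site (AGATAA or AGATAG or TGATAA or TGATAG) occurred at 1 place in the gene, chr6:88203185-88203204, or +9.29 kb. This place was outside the peak, 224 bp from its edge and 284 bp from its summit. The sequence from that pair toward the peak is shown because the accessible interval and the motif pair can be told apart in it, on the plus strand of mm10 at chr6:88203175-88203474, with the E-box and the GATA letters in capitals.
Gata2 intron: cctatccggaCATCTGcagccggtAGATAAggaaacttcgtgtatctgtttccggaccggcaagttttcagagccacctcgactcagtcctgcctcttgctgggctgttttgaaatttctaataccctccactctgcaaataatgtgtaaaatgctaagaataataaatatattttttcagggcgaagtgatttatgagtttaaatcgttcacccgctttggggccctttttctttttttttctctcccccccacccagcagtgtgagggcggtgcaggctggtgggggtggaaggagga
The last 47 bases printed lie inside the peak, and the capitals stand at the other end.

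Gata3, the GATA factor of T cells, is transcribed from the minus strand and carried the strongest promoter peak of the members. That peak, chr2:9879094-9879893, had a fold enrichment of 13.1 (−log10 q 88.9, 119 fragments, interval 98.6 to 142). It lay 494 bp upstream of the coding start at position 9878600, in an intron of the longer transcripts. A weaker peak, chr2:9878570-9878961, covered the start itself with a fold enrichment of 4.36 (−log10 q 12.1, 38 fragments). In this library the stronger of the 2 summits was thus upstream of the start rather than over it. Their counting intervals did not overlap, and the difference was not tested. The other coding start, the far upstream one, had its nearest peak 10141 bp away. No further peak lay in the gene body, and the flanks held 2, one at −14.3 kb with a fold enrichment of 4.73 and one beyond the 3′ end, chr2:9818117-9818483, with 7.74. The window reaching 100 bp to either side of the strongest summit is shown because it contains a letter match to AP-1 (TGACTCA, in capitals, read here as TGAGTCA on the plus strand), 69 bp from the summit, at chr2:9879587-9879787.
Gata3 highest: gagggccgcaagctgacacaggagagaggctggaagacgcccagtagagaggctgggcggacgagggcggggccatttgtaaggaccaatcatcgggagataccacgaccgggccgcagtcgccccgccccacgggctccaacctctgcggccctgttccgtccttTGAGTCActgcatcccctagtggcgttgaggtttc

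Gata1, the GATA factor of red cells and megakaryocytes, had no peak at any of its 3 starts or in its body. Its nearest peak to any start, 15969 bp away, was at the start of the neighbouring deacetylase gene Hdac6, at chrX:7947704-7948197, with a fold enrichment of 11.8 (−log10 q 34.1). A second peak at Hdac6 had a fold enrichment of 4.99, and one at −49 kb from the Gata1 start, near no other start, had 4.2. Around the Gata1 start, 78731 bp held no peak. Gata1 is on chromosome X, where this library had 7.76 peaks per Mb against 17.2 to 35.6 on the autosomes, and the part of this in its low count was not tested. The 3 GATA genes thus differed, with a promoter peak at Gata2 and Gata3 and none at Gata1.

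Spi1 had the weakest promoter peak of the 4 genes with one. The peak at chr2:91082999-91083142, 591 bp past a start, in an intron, had a fold enrichment of 3.22 (−log10 q 3.78, 18 fragments, interval 10.7 to 28.4), and its fold enrichment ranked at percentile 7.08 of all peaks. No peak covered a start of Spi1. In the gene body a peak 19.2 kb from the start, chr2:91101494-91101822, had a fold enrichment of 7.1 (−log10 q 19.6). Another at chr2:91115065-91115525 had 7.68 (−log10 q 25.4), with its summit in an exon near the 3′ end of the gene, the one gene body peak of the members outside an intron. The flanks held 5 peaks, of which 3 were at starts of other genes. The highest, chr2:91070016-91070870, was at the start of the zinc transporter gene Slc39a13 and had a fold enrichment of 10.4 (−log10 q 96.4, 151 fragments). One at Psmc3, a proteasome gene, had 10.2, and one 74.8 kb from the Spi1 start, inside Madd, had 8.82. The highest peaks at Slc39a13 and Psmc3 thus exceeded every peak inside Spi1.

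Tal1, the basic helix-loop-helix factor of blood stem cells, had no peak at its 4 starts and none in its body, but many flanking peaks, at percentile 95.6 of protein-coding genes. Fold enrichments of the 11 peaks spanned 2.51 to 14.9, and their median was 5.23. Counted per length, the window of the gene and its flanks held 9.54 peaks per 100 kb, against a median of 3.94 over all protein-coding genes (quartiles 1.54 and 6.64). The nearest peak to a start was 3512 bp upstream, chr4:115052486-115052914, with a fold enrichment of 6.81 (−log10 q 15.7). Those at chr4:115109553-115110126 and chr4:115103560-115103922, at +53.5 and +47.2 kb, had 11.9 and 11.1. Only 1 of the 11, that at Pdzk1ip1 with a fold enrichment of 2.51 (−log10 q 1.38, 12 fragments), lay at another gene's start. Some of the others had their summits inside a neighbouring gene, as the peak with 11.9 did inside Cyp4x1.

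The window of the same length at 1 of these summits is shown because it is the peak nearest to the known +19 kb blood enhancer of Tal1. This window, chr4:115074941-115075141 on the plus strand, has 2 GATA matches in capitals, read from the opposite strand, of which the nearest is 29 bp from the summit. It also holds an AP-1 match, left in lower case.
Tal1 downstream: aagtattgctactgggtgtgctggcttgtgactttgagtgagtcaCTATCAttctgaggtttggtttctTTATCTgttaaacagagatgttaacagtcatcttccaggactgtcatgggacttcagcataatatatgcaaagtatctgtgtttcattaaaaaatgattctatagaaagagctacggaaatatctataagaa
Of all 63456 windows of this length at peak summits, 20.5% held such a GATA match and 30.1% an AP-1 match, so neither is rare in this library.

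Lmo2, the LIM protein that bridges TAL1 and GATA factors, had 1 peak in its whole window. It lay at chr2:104027519-104028450, at the shared start region of Fbxo3 and 4931422A03Rik, 56340 bp from the nearest start of Lmo2, with a fold enrichment of 7.49 (−log10 q 21, 38 fragments). Around the gene start 178265 bp held no peak, against a median of 13789 bp for protein-coding genes and an upper quartile of 110893 bp. The partners Tal1 and Lmo2 were therefore alike in having no promoter peak and unlike in their flanks, with 11 peaks against 1.

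Ikzf1 encodes the zinc finger protein Ikaros of lymphoid cells. No peak lay at its 5 starts or anywhere in its body of 87924 bp, and the peak-free stretch around its start, 333225 bp, was longer than at 83.9% of protein-coding genes. Its 4 flanking peaks were all beyond the 3′ end. The highest, chr11:11808636-11809630, had a fold enrichment of 14.2 (−log10 q 88.7, 113 fragments) and was at the start of Fignl1. The peak nearest to the gene, chr11:11788543-11789053, had 13.6 (−log10 q 59.4) and was 102098 bp from the nearest start. The other two had fold enrichments of 4.48 and 9.42.

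Pax5, which fixes B cell identity, had 2 peaks in a window that spans a gene of 185731 bp and its flanks, or 0.7 per 100 kb. The one in its body, chr4:44626335-44626475 in an intron, was weak, with a fold enrichment of 3.68 (−log10 q 3.61, 13 fragments, interval 6.92 to 22.2). The other was at the start of Zcchc7, at −46.1 kb, with a fold enrichment of 11.5 (−log10 q 34.6). Myb, the progenitor factor, had a single peak, chr10:21189091-21189420, at −28.2 kb, with a fold enrichment of 7.09 (−log10 q 14.5, 26 fragments). It lay at the start of the non-coding gene Gm40608. Around the Myb start 159703 bp held no peak.

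Ebf1, the early B cell factor, stood apart from the other members in the number of its peaks. It had 28, percentile 99.7 of protein-coding genes, and is also longer than 98.3% of them, with 390775 bp. Counted per length, its body held 5.12 peaks per 100 kb, against a median of 1.82 and quartiles of 0.586 and 3.82 for the 2492 genes longer than 100 kb. The shorter body of Spi1 held 5.99 per 100 kb. With the flanks included, Ebf1 had 5.71 per 100 kb, percentile 67.1 of protein-coding genes and below Tal1 (9.54) and Spi1 (6). Ebf1 is on chromosome 11, which had the highest density of any chromosome, 35.6 peaks per Mb, and the part of this was not tested. The peak over the Ebf1 start, chr11:44617035-44617514, had a fold enrichment of 10.3 (−log10 q 46.4, 70 fragments, interval 54.6 to 88.4), near the median of 9.86 for the strongest promoter peak of a gene. This peak also lay within 1 kb of a start of Gm37695, which is not protein-coding. A weaker promoter peak, chr11:44618045-44618506, had 4.78 (−log10 q 11.5) and covered starts of non-coding transcripts.

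The 20 gene body peaks of Ebf1 were all in introns. Between the promoter peaks and the first of them 107325 bp were empty, and from there on they ran to the 3′ end, 8 before the midpoint of the gene and 12 after it. Their median fold enrichment was 6.68 (lowest 3.68, highest 17.3), and 14 of the 20 were at 5 or higher. The member peak with the highest fold enrichment was among them, chr11:44902016-44902538, 285 kb into the gene, with a fold enrichment of 17.3 (−log10 q 82.3, 92 fragments, interval 74.2 to 113). Next came chr11:44812022-44812706 with 11.6 (−log10 q 45.1). The 6 flanking peaks were lower, from 3.41 to 6.57. The window reaching 100 bp to either side of the highest summit, chr11:44902167-44902367 on the plus strand, is shown because it has the highest fold enrichment of the 66 member peaks, with its AP-1 match in capitals, 90 bp from the summit.
Ebf1 highest intron: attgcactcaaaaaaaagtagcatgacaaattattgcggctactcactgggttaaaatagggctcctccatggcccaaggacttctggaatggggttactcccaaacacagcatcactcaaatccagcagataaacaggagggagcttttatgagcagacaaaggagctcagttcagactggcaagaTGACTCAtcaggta
The same window also held a GATA and a TEAD match, left in lower case.

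**Figure D2:**
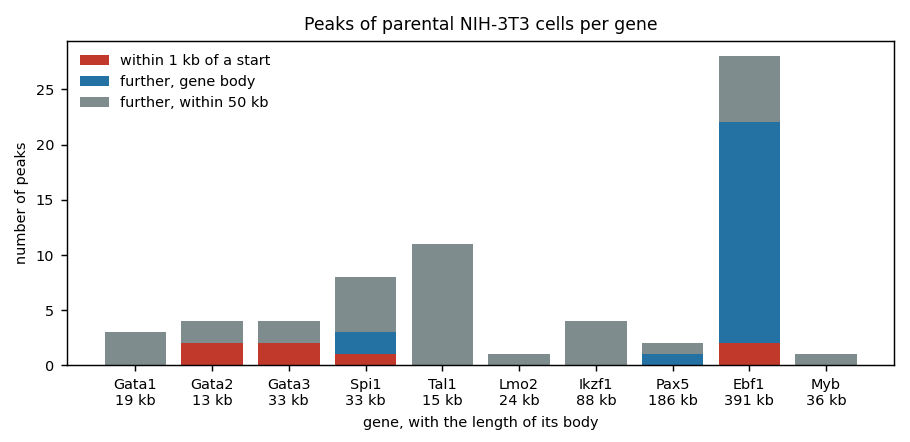
Number of peaks at each of the 10 genes, split into promoter peaks (red), further peaks in the gene body (blue) and further peaks within 50 kb (grey), with the length of the gene body under each name. Ebf1 has 28 peaks at a gene of 390775 bp, Tal1 11 at a gene of 15330 bp, and Lmo2 and Myb 1 each.

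The absence of promoter peaks was set beside the CpG content of the starts, because CpG-rich promoters are open in most cell types. The observed to expected CpG ratio was taken over 500 bp to either side of each coding start, and a gene was called CpG-rich when its highest ratio was 0.6 or more. Of CpG-rich protein-coding genes 82.3% had a promoter peak, and of the others 23.5%. In all, 7 members were CpG-rich, Gata2, Gata3, Tal1, Lmo2, Ikzf1, Pax5 and Myb, with ratios from 0.638 at Gata3 to 0.977 at Ikzf1. Only Gata2 and Gata3 of these 7 had a promoter peak, and the 5 others had none, with ratios of 0.804 or more. Of the 3 CpG-poor members, Ebf1 (0.492) and Spi1 (0.341) had a promoter peak and Gata1 (0.306) had none. At Ebf1 a non-coding start 799 bp into the gene had a ratio of 1, and at Gata2 the peak lay over the start with a ratio of 0.659 and not over that with 0.767. At ratios of 0.5 and 0.7 the count was 2 of 7 and 1 of 6 members, against 79.3% and 85% of such genes.

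**Figure D3:**
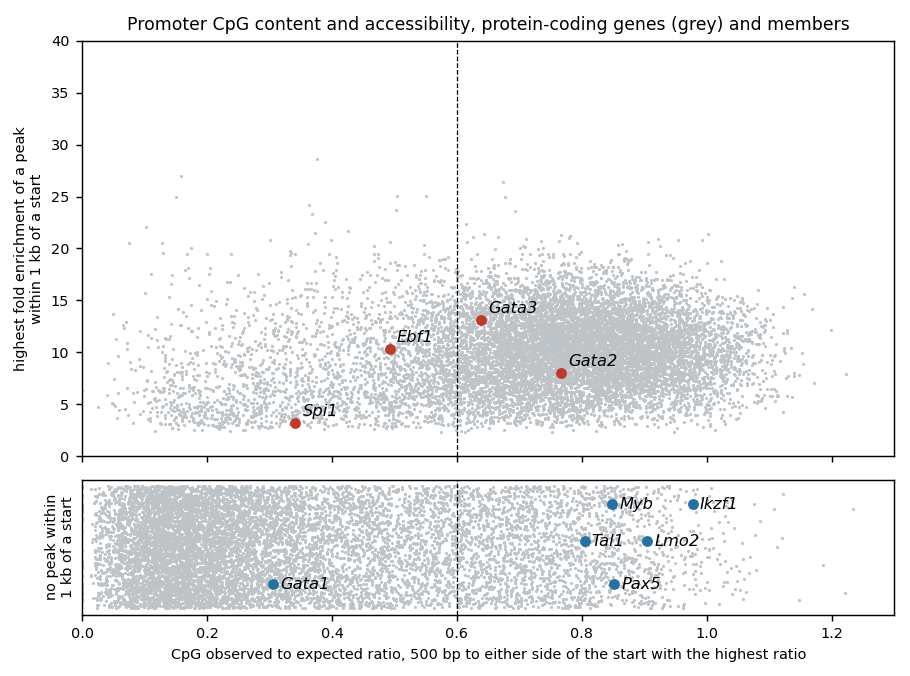
Highest CpG observed to expected ratio at a coding start (x axis, no unit) against the highest fold enrichment of a promoter peak (y axis, upper panel), with 1 grey point for each protein-coding gene and named points for the members. Genes with no promoter peak are in the lower panel, where the vertical position has no meaning, and the dashed line marks 0.6. Tal1, Lmo2, Ikzf1, Pax5 and Myb lie in the lower panel to the right of the line.

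Neighbouring genes with a start in the same windows were read at all of their starts. Of these 21 other protein-coding genes, 11 had a promoter peak, against 53.7% of all protein-coding genes. At 8 of the 11, Psmc3 and Fignl1 included, such a peak was one of the flanking peaks of the members. The promoter peaks of the remaining 3, Taf3 with a fold enrichment of up to 14.8, Stil with up to 15.7 and Madd with up to 7.38, lay outside the windows. Of the 36 flanking peaks, 11 lay within 1 kb of a start of another gene, 9 of them coding. In the whole library, 16264 of the 63456 peaks lay within 1 kb of any start. Counting also the gene bodies, 48 member peaks were at no annotated start, with a median fold enrichment of 6.1, against 5.54 for the 47192 such peaks of the library. For Gata1, Spi1, Lmo2, Ikzf1, Pax5 and Myb the highest peak in the window was in each case at a start of another gene. For Gata2, Gata3, Tal1 and Ebf1 it was not. Lmo2 and Myb had only 1 peak each in the window, and Pax5 had 2. Library peaks within 1 kb of any start had a median fold enrichment of 8.03, above that of peaks at no start.

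The windows were also compared with enhancers known from blood cells, each placed by its customary approximate distance from a start of the gene. For Gata2, the place at +9.5 kb lay 37 bp from a peak when counted from the gene start, and 4246 bp from it when counted from the proximal start. The E-box and GATA pair described with that gene lay farther from the peak than the first of these places, 224 bp from its edge. For Spi1, the place of the enhancer at −14 kb, the upstream regulatory element, also depended on the start. From the coding starts 13706 and 14390 bp into the gene, it lay 903 and 219 bp from the weak peak at chr2:91082999-91083142, with a fold enrichment of 3.22 (−log10 q 3.78, 18 fragments), which is also the promoter peak of Spi1. From the upstream start, it lay 318 bp from the peak at chr2:91068708-91069628, with a fold enrichment of 5.7 (−log10 q 33.8, 83 fragments), which is also within 1 kb of a start of Slc39a13. The +19 kb stem cell enhancer of Tal1 lay 192 bp from the peak at chr4:115074902-115075234 whose sequence is printed above, with a fold enrichment of 5.23 (−log10 q 9.55, 23 fragments) and a summit at +18.6 kb. Counted from the other coding starts of Tal1, that distance was 1204 to 3274 bp. Over all coding starts, the nearest peak was 2254 to 5336 bp away for the +40 kb red cell enhancer of Tal1, 19469 to 33374 bp for the −3.5 kb element of Gata1 and 7485 to 7564 bp for the −36 kb enhancer of Myb. The distances are round values, so a small distance places a peak in the neighbourhood of an enhancer and not on it.

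Short sequence motifs were counted in the windows reaching 100 bp to either side of the summits, on both strands, and matches of different motifs could share bases. The GATA letters were found in 20 of the 66 member windows (30.3%), against 20.5% of all windows, and AP-1 letters in 26 (39.4%) against 30.1%. For the 48 peaks at no start the shares were 37.5% and 47.9%, against 23.4% and 36.5% of such peaks in the library. The E-box letters (CAGATG or CAGCTG or CATCTG) were in 15 windows (22.7%) against 28.3%, RUNX letters (TGTGGT) in 10 (15.2%) against 19.8%, and TEAD letters (CATTCC) in 9 (13.6%) against 15%. The longer ETS letters that PU.1 prefers (GAGGAAGT) were in 1 window, or 1.52%, against 2.33%. No member window held the E-box and GATA pair, which 0.128% of all windows held. In the 20 intronic peaks of Ebf1, 9 had AP-1 and 8 had GATA letters. With 66 windows from 10 loci, 28 of them from Ebf1, these shares are descriptions, and peaks of 1 gene are not independent.

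Other gene lists put the count of 4 in 10 beside genes of similar function. Of 24 further blood regulators, 5 had a promoter peak (20.8%), with fold enrichments from 4.73 at the ETS factor Fli1 to 8.68 at Runx1, the core factor of definitive blood formation. Among the 19 without one were Klf1, Irf8, Gfi1 and the Ikaros relatives Ikzf2 and Ikzf3. Of 15 paralogues of the members, 5 had one (33.3%), from 5.18 at Ebf3 to 13.5 at Mybl2, the cell cycle relative of Myb. Among GATA paralogues, Gata4 had one with 7.12, and Gata5 and Gata6 had none. Partners that the blood factors share with other cell types stood at 8 of 8, from 7.23 at Tcf12, an E-protein that pairs with TAL1, to 14.3 at the E-protein gene Tcf4, with Ldb1 at 7.52.

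Mesenchymal and myogenic regulators were read in the same way. Mesenchymal regulators had a promoter peak at 9 of 11 genes (81.8%), of which Prrx1 and Twist1 are also among the fibroblast markers, from 3.65 at Prrx1 to 11.7 at Snai2, and Prrx2 and Tcf21 had none. Myogenic regulators had one at 1 of 6 (16.7%), Pax3, with 11.4. The members' 40% lay between these shares, above the other blood regulators and the blood cell markers. Among CpG-rich genes alone, a promoter peak was present at 2 of 7 members and 5 of 15 other blood regulators. There the members were thus not above the other blood regulators. The partners were all CpG-rich (8 of 8 with a peak), and of CpG-rich mesenchymal and myogenic regulators 7 of 8 and 1 of 2 had one. The strongest promoter peaks of Gata3 and Ebf1, 13.1 and 10.3, were within the range of the mesenchymal list or above it, and that of Spi1 was below its lowest value. No test was made of these differences, since the lists were chosen by name and come from 1 library.

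**Figure D4:**
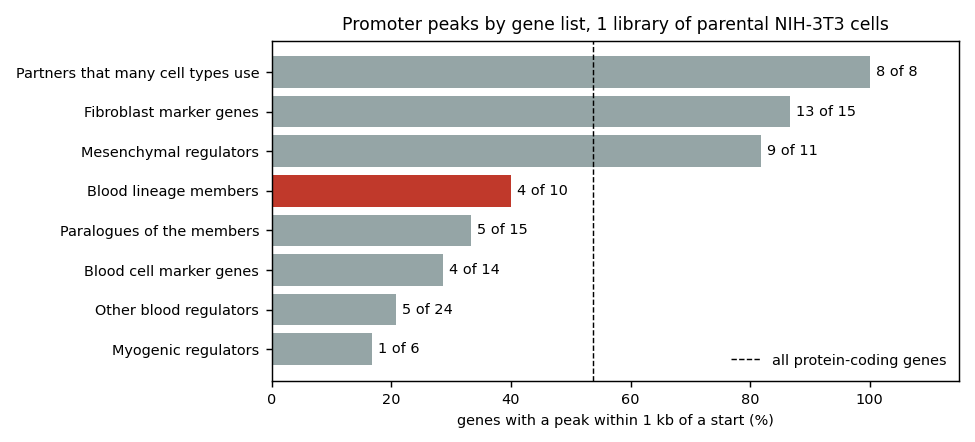
Share of the genes of each list with a peak within 1 kb of any annotated start (x axis, percent), with the number of genes beside each bar, the members in red and the share over all protein-coding genes, 53.7%, as a dashed line. The members, at 4 of 10, lie left of the line together with paralogues, blood cell markers, other blood regulators and myogenic regulators, and partners, fibroblast markers and mesenchymal regulators lie to its right.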

How the data were processed

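ATAC-seq of parental NIH-3T3 cells was analysed as 1 library. The authors aligned 75-nucleotide paired-end reads to mm10 with STAR 2.5.3a and kept unique reads. Only chromosomes 1 to 19, X and Y were used, Picard dropped duplicates, and MACS2 2.1.1.20160309 called peaks on whole fragments, without pooling. They describe no Tn5 shift. The authors deposited for each peak a fold enrichment (a ratio at the summit), a −log10 p and a −log10 q. For peak calling the methods refer to their ChIP-seq account, in which peaks shared with input or with ENCODE blacklisted regions were dropped. Whether both steps were applied to this list was not checked here. The methods name doxycycline for NIH-3T3 cells in general, and the labels list none for this line.

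Each peak was placed once per gene, as promoter, then gene body, then flank, against GENCODE M21, which is of the same build (GRCm38). Coordinates count from 1, and printed sequences are from the RefSeq copy of GRCm38. Fragments at a summit were solved from fold and −log10 p by bisection, and 99.997% came within 0.02 of a whole number. On simulated data 100% of 5000 pileups and of 2000 placed peaks were recovered. The total read depth is unknown from a peak list. Percentiles put ties at their mean rank. The tools were pysam 0.24.0, pandas 2.3.3, NumPy 2.4.6, SciPy 1.17.1 and matplotlib 3.10.9 under Python 3.11.15.

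The members and all lists were chosen with earlier results of these data known. Named were all promoter peaks, the highest gene body and flanking peak of each member (the latter not for Tal1), the peak nearest to a start, genes at flanking peaks, peaks near known enhancers, and the highest and lowest promoter fold of each list. Further peaks and genes, the CpG ratio of 0.6, the E-box and GATA pair and the printed sequences were chosen after values were seen. A marker gene and a sequence are not reported here. The +9.5 kb of Gata2 was first counted from the proximal start, which put it outside the gene, 4246 bp from a peak. Counting enhancers from every coding start was added afterwards. Alternatives were thresholds on q and fold, other distances, summit placement and coding TSSs alone.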

Additional observations from a re-analysis of the deposited data

How the results depend on the processing

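Of 63 values recomputed under 11 alternative settings, 53 stayed within 1.5 times the reported value and 10 moved further. The number of members with a promoter peak, 4 as reported, ranged from 3 to 5. It was 3 without Spi1 when q had to be 1e-05 or below, when the fold enrichment had to be at least 5, or when the peak had to overlap the TSS itself, and 5 with Tal1 when 5 kb from a TSS was allowed. When the peak had to overlap the TSS, 4 promoter peaks were left in place of 7 and 5 members had a gene body peak in place of 3. A fold enrichment of at least 5 left 4 promoter peaks and 23 flanking peaks in place of 36. Flanks of 25 kb held 19 peaks, 5 of them at starts of other genes in place of 11, and flanks of 100 kb held 70, with 22 at other starts. With flanks of 25 kb, 7 members had a flanking peak in place of 10. Within 5 kb of a TSS, 19 flanking peaks were at other starts. With a CpG ratio of 0.7, 1 CpG-rich member had a promoter peak in place of 2, since Gata3 was no longer among them. Each shift follows from the wider or narrower window or threshold. No paired analysis was possible because the values come from a single library. No replicate could be left out for the same reason, and weak peaks such as that at Spi1 rest on few fragments.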
